A study of Mus musculus with 10 samples.

Results

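Crypts from the small intestine of mice that had lost Lgr4 and Lgr5 1 day earlier were compared with wild type crypts on 4 of the 10 arrays of the series. The arrays were those whose titles name the double knockout at day 1, and every gene above background on them was described. Deleted crypts came from AhCre mice with Lgr4 fl/fl and Lgr5 fl/fl alleles, after induction of the Cre recombinase, which the labels also call P450Cre. AhCre is driven by a Cyp1a1 promoter, which foreign compounds switch on through the aryl hydrocarbon receptor. The control RNA came from wt crypts and shared each array with the deleted RNA. The labels give neither the age, sex or strain of the mice nor whether wild type mice received the inducer, so an effect of the inducer and one of the deletion cannot be told apart for any gene. The 2 biological replicates each took up a dye-swapped pair of arrays, and nothing states how many mice a replicate holds. Each replicate lay on a slide of its own, so slide and replicate cannot be told apart.

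Crypts are the pits of the intestinal lining in which stem cells divide next to Paneth cells, and their progeny differentiate on the way up to the villus. Lgr4 and Lgr5 are receptors for R-spondins, secreted proteins that strengthen Wnt signalling by removing the ubiquitin ligases Rnf43 and Znrf3 from the cell surface. Lgr5 marks the stem cells at the crypt base, and Lgr4 is expressed more widely in the crypt. The comparison asked which genes respond on the first day after both receptors are lost.

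All values are log2 ratios of deleted over wild type RNA. Values given as a series of 4 are in the order replicate 1 with deleted RNA in Cy3, replicate 1 with deleted RNA in Cy5, and the same pair for replicate 2. A replicate value is the mean of its usable arrays, and the mean of the 2 replicates carries the SE of limma's linear model. A gene rose or fell where its limma adjusted p (Benjamini-Hochberg over all genes tested) was under 0.05. Of 12092 genes tested, 6 rose (0.0496%) and 1 fell (0.00827%). At an unadjusted p under 0.05, limma gave 781 higher and 892 lower genes. Without a test, 50 genes (0.413%) were at -1 or lower in both replicates and 129 (1.07%) were at 1 or higher in both. Below 0 on all 4 arrays were 1726 genes (14.3%), and above 0 on all 4 were 1621 (13.4%). The median gene was at -0.02.

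The replicates agreed in part. Over the genes tested, which are not independent of each other, the replicate values correlated with r = 0.461, and 63.2% of genes had the same sign in both. The 2 arrays of replicate 2 were close to each other (r = 0.919 over 17380 probes), whereas those of replicate 1 were not (r = 0.348), and arrays of different replicates gave 0.340 to 0.397. The difference between the dye orientations of a gene had an SD of 0.55 in replicate 1 and 0.268 in replicate 2. The sign of the log2 ratio differed between orientations for 45.9% and 14.9% of genes. Deleted RNA was above background at 40.2% to 60% of gene probe spots and wild type RNA at 41.8% to 57.6%. Replicate 2 held more genes past 1 in size, 907 lower and 426 higher, than replicate 1, with 127 and 231. The 1 gene past 1 in opposite directions was Cyp3a11, a drug-metabolising cytochrome, at 1.30, 1.05, -1.12 and -1.13.

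**Figure D1:**
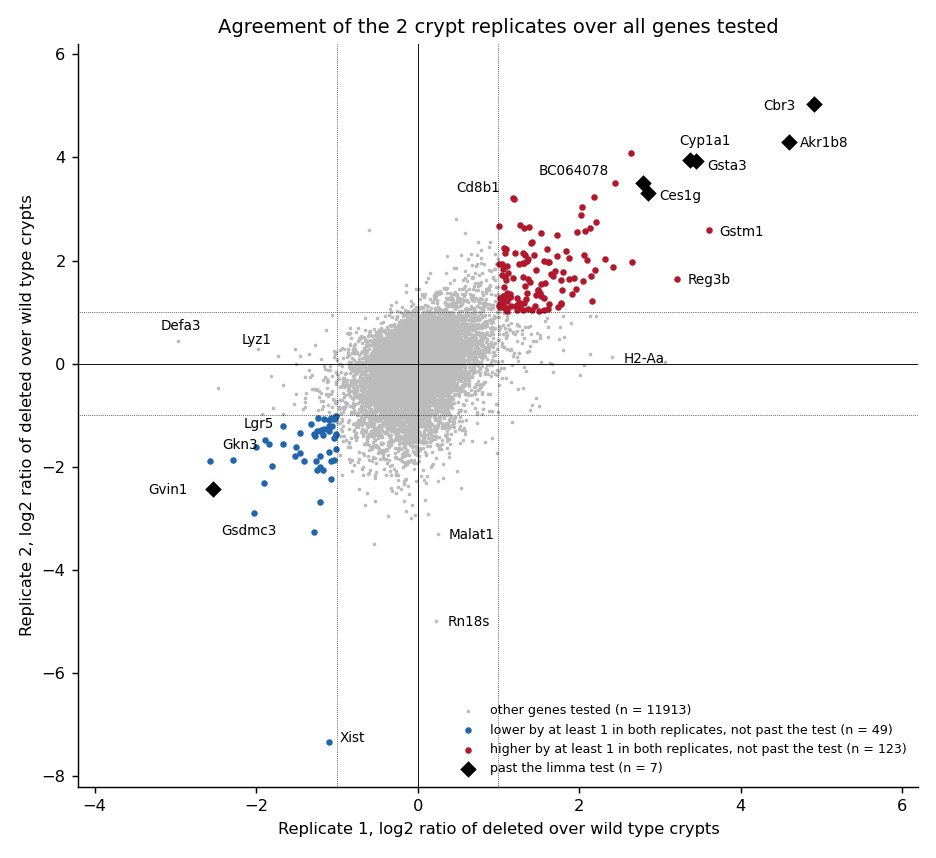
Each point is 1 of the 12092 genes tested, with its log2 ratio of deleted over wild type crypts in replicate 1 on the horizontal and in replicate 2 on the vertical axis; dotted lines mark -1 and 1. Diamonds are the 7 genes past the limma test, blue and red points those past 1 in size in both replicates, and Xist and Rn18s are far below 0 in replicate 2.

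The replicates also differed in RNAs that the deletion does not name. Xist, the RNA that silences an X chromosome in female cells, gave -0.99, -1.21, -7.57 and -7.10. Its background-subtracted signal in replicate 2 was 10.0 and 19.4 in deleted RNA, not above background, and 15830 and 8150 in wild type RNA. In replicate 1 it was above background in both RNAs, with signals of 2723 and 1017 against 2048 and 5936. The Y-linked gene Eif2s3y was above background only in the deleted RNA of replicate 2, with signals of 2432 and 4180, and so was Kdm5d, with 730.5 and 1157. Ddx3y was marked above background there too, but also on 1 array of replicate 1, where its spot was marked as an outlier. In replicate 2 the deleted RNA thus carried Y-linked transcripts without Xist and the wild type RNA carried Xist without them, while both RNAs of replicate 1 carried Xist. The labels give no sex. Of 317 X-linked genes tested, 2 were at -1 or lower and 2 at 1 or higher in both replicates, against 0.413% and 1.07% of all genes. Without X-linked genes the calls were the same in number, 1 lower and 6 higher, but none of these genes is X-linked. Leaving X-linked genes out thus could hardly change the calls. In replicate 2 the difference in Xist and Y-linked transcripts coincided with the deletion. A sex difference and the deletion cannot be told apart there for any gene, X-linked or not. The X-linked genes among the members described below are Xist and Pir.

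Some other RNAs also separated the replicates. The ribosomal RNA probe Rn18s gave 0.23 on the usable array of replicate 1 and -4.67 and -5.29 in replicate 2. The nuclear RNA Malat1 gave 0.68, -0.18, -3.0 and -3.59, and the mitochondrial leucyl-tRNA synthetase gene Lars2 gave -0.18, 0.03, -2.94 and -3.05. These were at or near 0 in replicate 1 and far lower in the deleted RNA of replicate 2. Another nuclear RNA, Neat1, did not separate them as far, at -0.24, -0.48, -0.47 and -0.89, and the small nucleolar host RNA Gas5 was low in both, at -1.61, -0.81, -2.73 and -2.61. In replicate 1 the haemoglobin gene Hbb-bt gave 2.54 and 1.73 and the class II antigen gene H2-Aa 2.92 and 1.90, against 0.36 and 0.02 and 0.12 and 0.14 in replicate 2. These transcripts were thus higher mainly in the deleted RNA of replicate 1. The class II genes H2-Eb1, H2-Ab1 and H2-DMa, among the highest of their list, followed H2-Aa. Their replicate values were 1.61 and 0.53, 1.51 and 0.51, and 1.16 and 0.29. The whole antigen processing list, which also holds class I genes, had medians of 0.43 and 0.31 in replicates 1 and 2. The myeloid and mast cell list had medians of 0.71 and 0.87. Of its 11 genes tested, 5 were tested through the deleted RNA only. Higher values of those 5 were thus built in, and the other 6 had a median of 0.51. The part of these differences in the results below was not tested, and for that reason the genes that the results turn on are given with all of their arrays.

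**Figure D2:**
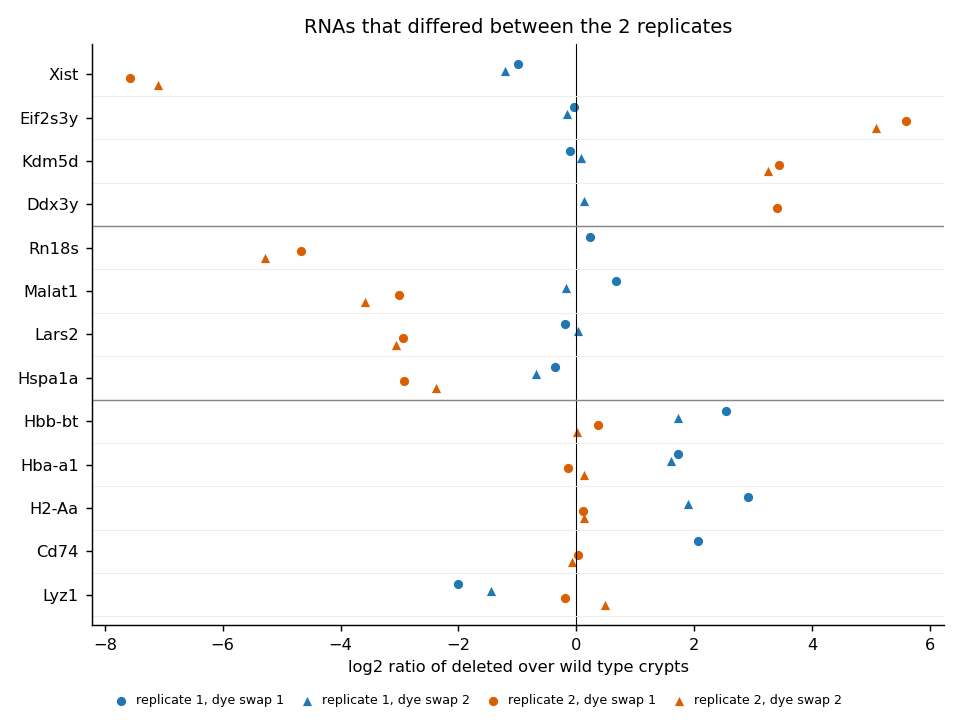
Log2 ratios of deleted over wild type crypts (horizontal axis) for 13 RNAs (rows), with 1 point per usable array of replicate 1 and of replicate 2. The sex-linked genes drawn and Rn18s, Malat1 and Lars2 lie much nearer 0 in replicate 1 than in replicate 2, and Hbb-bt, Hba-a1, H2-Aa and Cd74 do the reverse.

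The 2 deleted genes were lower on every array. Lgr5, on chromosome 10, gave -1.51, -2.27, -1.54 and -1.42, a mean of -1.68 (SE 0.23, limma adjusted p 0.0822). Its deleted and wild type signals were 220 and 332, 62.8 and 1389, 859 and 2729, and 1303 and 1748 on the 4 arrays, before the dyes were balanced. Lgr4, on chromosome 2, gave -1.51, -1.52, -1.78 and -1.45, a mean of -1.56 (SE 0.22, limma adjusted p 0.0832). Neither passed the test, and both passed with the scanner software's own processed signals, at adjusted p 0.00189 and 0.00421. Both stayed above background in deleted RNA on all 4 arrays, and the labels do not say which exons were removed, so whether these probes lie in the deleted parts is not known here. Over the alternatives the adjusted p ranged from 0.00189 to 0.438 for Lgr5 and from 0.00231 to 0.438 for Lgr4. Another Lgr4 probe gave -1.0, -0.92, -1.15 and -1.15.

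The ligases on which R-spondin acts through these receptors differed from each other. Znrf3 gave -0.48, -0.54, -1.06 and -0.81 (limma adjusted p 0.29) and was below 0 on all 4 arrays. Rnf43 gave -0.79, -0.07, 0.41 and 0.52 (limma adjusted p 0.986), with opposite signs in the 2 replicates. Lgr6 and the ligand genes Rspo1 to Rspo4 were not above background often enough to be tested, so 4 of 9 genes of this system were tested and 0 passed. In bulk RNA such as this, fewer cells of a type and less RNA per cell cannot be told apart.

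Of the 6 genes that rose, Cyp1a1, Cbr3, Akr1b8, Gsta3 and Ces1g code for enzymes that act on foreign compounds. Cyp1a1, on chromosome 9, the cytochrome that the aryl hydrocarbon receptor switches on, rose by 3.66 (SE 0.25, 12.7-fold, limma adjusted p 0.017). Its arrays gave 2.94, 3.80, 3.87 and 4.04, with signals of 19140, 9272, 42845 and 75110 in deleted RNA against 866, 1483, 2684 and 1703 in wild type RNA. Every deleted signal was thus above every wild type signal. Ahrr, on chromosome 13, the repressor that the same receptor induces, gave 2.60, 2.28, 3.56 and 3.45, a mean of 2.97 (limma adjusted p 0.0537). Of the 15 genes of this receptor's battery that were tested, 1 rose against 0.0496% of all genes, 6 were at 1 or higher in both replicates against 1.07%, and the median was 0.68. The receptor gene Ahr itself, picked after its values were seen, gave 1.04, 0.23, 0.38 and -0.02.

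The largest of the 6 rises was that of Cbr3, on chromosome 16, a carbonyl reductase, at 4.23, 5.59, 4.65 and 5.41, a mean of 4.97 (SE 0.22, 31.3-fold, limma adjusted p 0.00526). Its signal was 83276 to 279625 in the deleted RNAs and 1629 to 8904 in the wild type RNAs. Akr1b8, on chromosome 6, an aldo-keto reductase, gave 4.60, 4.16 and 4.46 on its 3 usable arrays, a mean of 4.45 (21.9-fold, limma adjusted p 0.00603). The array missing for Akr1b8 was that of replicate 1 with deleted RNA in Cy5. Gsta3, on chromosome 1, a glutathione transferase, gave 3.48, 3.42, 3.96 and 3.92, a mean of 3.69 (12.9-fold, limma adjusted p 0.017). These 3 genes belong to the list of responses to Nrf2, the transcription factor that answers oxidants and electrophiles. Another probe of Gsta3 gave a mean of 3.12.

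Beyond those 3 calls, 37 of the other 42 Nrf2 genes tested were above 0, 13 were at 1 or higher in both replicates against 1.07% of all genes, and the median was 0.85. Pir, on the X chromosome, an iron-binding nuclear protein, gave 2.20, 2.15, 3.55 and 2.91. Me1, the malic enzyme that makes NADPH, gave 2.26, 2.01, 2.69 and 2.57, and Gsta4 gave 1.87, 1.88, 2.00 and 2.12. Each was above 1 on all 4 arrays with a limma adjusted p of 0.0537. Nqo1, a quinone reductase shared with the Cyp1a1 battery, gave 2.15, 2.26, 0.96 and 0.89 and was higher in replicate 1. The Nrf2 list and that battery also share Gsta1, Gsta2 and Nfe2l2, so their counts overlap. The haem oxygenase gene Hmox1, at -0.11, 0.24, 0.21 and 0.61, and Keap1, the inhibitor of Nrf2, at 0.46, -0.21, 0.36 and -0.09, lay near 0. The members named for low values, and Gsta4, were picked after their values were seen.

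The remaining rises were those of Ces1g, on chromosome 8, a carboxylesterase, and BC064078, on chromosome 6. Ces1g gave 3.13, 2.57, 3.31 and 3.33, a mean of 3.09 (8.49-fold, limma adjusted p 0.029), and another probe gave 2.70. BC064078 gave 2.79, 3.51 and 3.51 on its 3 usable arrays, a mean of 3.15 (8.9-fold, limma adjusted p 0.0378). The array missing for BC064078 was that of replicate 1 with deleted RNA in Cy3. Among 34 genes of conjugation and ester cleavage tested, 1 rose (against 0.0496% of all genes), 7 were at 1 or higher in both replicates (against 1.07%), and the median was 0.43. Aldh4a1, a mitochondrial dehydrogenase of proline breakdown, gave 2.34, 2.08, 2.78 and 2.71, Aldh1a7 gave 1.76, 1.68, 1.97 and 2.21, and the glucuronosyltransferase gene Ugt2b5 gave 2.22, 1.52, 1.88 and 1.41. Alcohol dehydrogenase Adh4 had the opposite sign at -1.03, -1.22, -0.22 and -0.50, and none of these 4 passed. Of 26 cytochromes of families 2 to 4 tested, 0 passed, 4 were at 1 or higher in both replicates against 1.07% of all genes, and the median was 0.32.

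Some of the higher genes lie close to each other. In the RefSeq gene order, 26 of 124 placed genes at 1 or higher in both replicates had another such gene within 200 kb, among them Gsta1, Gsta2 and Gsta4 on chromosome 9, Gstm1, Gstm3 and Gstm4 on chromosome 3, and Ugt2b5, Ugt2b36 and Ugt2b37 on chromosome 5. Cbr1 and Cbr3 on chromosome 16, Ces1f and Ces1g on chromosome 8, and Aldh1a1 and Aldh1a7 on chromosome 19 were pairs of the same kind. Of 47 placed lower genes, 5 had such a neighbour, and the share for genes in general was not computed. Close copies such as these can share probe signal, so their separate values are uncertain.

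Sequences before the start of the leading higher genes are shown for the short motifs bound by the factors named above. Each is the 250 bases before the RefSeq start on the GRCm38.p6 assembly, 5′ to 3′ on the gene's own strand, with capitals marking GCGTG, the core that the aryl hydrocarbon receptor binds, or TGACNNNGC, the antioxidant response element bound by Nrf2. Both strands were searched. The windows are chr9:57697363-57697612 (plus strand) for Cyp1a1, chr13:74292332-74292581 (minus strand) for Ahrr, chr6:34353896-34354145 (plus strand) for Akr1b8 and chr1:21240335-21240584 (plus strand) for Gsta3.
Cyp1a1: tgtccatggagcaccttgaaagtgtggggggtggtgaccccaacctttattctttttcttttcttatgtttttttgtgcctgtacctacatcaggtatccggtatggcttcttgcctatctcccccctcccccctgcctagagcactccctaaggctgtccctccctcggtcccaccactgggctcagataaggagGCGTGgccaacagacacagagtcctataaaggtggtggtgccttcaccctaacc
Ahrr: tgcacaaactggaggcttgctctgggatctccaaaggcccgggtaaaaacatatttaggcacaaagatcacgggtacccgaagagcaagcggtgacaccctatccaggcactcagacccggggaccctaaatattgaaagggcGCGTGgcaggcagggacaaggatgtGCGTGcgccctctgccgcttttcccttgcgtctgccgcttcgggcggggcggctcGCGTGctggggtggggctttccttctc
Akr1b8: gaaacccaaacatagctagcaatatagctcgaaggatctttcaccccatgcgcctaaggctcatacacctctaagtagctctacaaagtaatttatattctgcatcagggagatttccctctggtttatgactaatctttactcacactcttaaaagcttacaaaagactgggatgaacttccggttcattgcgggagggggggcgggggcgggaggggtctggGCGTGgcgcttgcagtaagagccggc
Gsta3: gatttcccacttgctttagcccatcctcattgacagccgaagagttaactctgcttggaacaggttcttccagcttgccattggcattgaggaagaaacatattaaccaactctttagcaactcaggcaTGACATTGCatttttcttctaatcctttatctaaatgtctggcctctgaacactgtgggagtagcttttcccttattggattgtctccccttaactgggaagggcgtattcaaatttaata
The Cyp1a1 window held 1 GCGTG core, 54 bases before the start, the Ahrr window 3, and the Akr1b8 window 1, 26 bases before the start. The Gsta3 window held 1 antioxidant element, 121 bases before the start. The windows of Cbr3, Ces1g and Nqo1 held neither, and no window was found for Gvin1, BC064078 and Lgr5.

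Both motifs are common. GCGTG was in 28.2% of 32851 windows, in 50% of the 8725 tested genes with a window, in 34.7% of 98 genes higher in both replicates and in 41.2% of 34 lower in both. TGACNNNGC was in 10.2% of all windows, and in 14.2% of the tested, 17.3% of the higher and 17.6% of the lower genes. A gene with several windows counted as holding a motif if any of them did. The shares of genes are thus not directly comparable with the shares of all windows. These shares describe letters in a short window and say nothing of distal elements.

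The 1 gene that fell was Gvin1, on chromosome 7, a very large GTPase that interferon induces. It gave -2.53, -2.41 and -2.44 on its 3 usable arrays, a mean of -2.48 (SE 0.22, limma adjusted p 0.0462), and its other probes gave -1.82 and -1.39. The array missing for Gvin1 was that of replicate 1 with deleted RNA in Cy3. Its signal was 3157 to 29413 in deleted RNA and 39774 to 81501 in wild type RNA. The related gene Gm1966, also on chromosome 7, gave -1.46, -1.88, -1.21 and -1.90 (limma adjusted p 0.0772), and close copies of this family may share probe signal. The calls rested on both replicates to different degrees. With replicate 2 left out and the spread taken from the organoid arrays, Cbr3, Akr1b8 and Gsta3 still passed, while limma adjusted p was 0.0583 for Gvin1 and Ces1g, 0.1 for BC064078 and 0.153 for Cyp1a1. Where a gene had to be above background in both RNAs on all 4 arrays, Gvin1 and BC064078 had adjusted p 0.0619 and 0.0552, and with no filter on dim probes all 7 were at 0.438. Most other interferon genes lay above 0. Of 29 genes of the type I interferon response tested, 25 were above background in wild type RNA on all 4 arrays, and the remaining 4 were tested through the deleted RNA only. Of the 25, 24 were above 0, 3 were at 1 or higher in both replicates against 1.07% of all genes, 0 passed, and the median was 0.60. The exception was Stat2, a transcription factor of this response, at -0.09, -0.08, -0.48 and -0.68. Oasl2, an antiviral enzyme, gave 0.60, 1.5, 1.51 and 1.92, and Igtp, an interferon-inducible GTPase, gave 1.41, 1.38, 1.65 and 1.53.

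Gasdermin C genes, which code for pore-forming proteins of the upper crypt and villus, were next among the low values. Gsdmc3, on chromosome 15, gave -2.36, -1.69, -2.78 and -3.01, a mean of -2.46 (SE 0.28, limma adjusted p 0.0537). Its neighbour Gsdmc2 gave -1.27, -1.29, -3.24 and -3.26 (limma adjusted p 0.168), with lower values in replicate 2. Their more distant relative Gsdmd gave 1.09, 1.01, 0.52 and 0.64. Both Gsdmc probes were below -1 on every array, and neither gene passed.

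Stem cell genes of the crypt base were low without passing the test. All 34 genes of the list were tested and above background in wild type RNA on all 4 arrays, and so were 45 of the 46 enterocyte genes tested, so detection does not separate crypt from villus. Of the stem cell genes, 29 were below 0, 9 were at -1 or lower in both replicates against 0.413% of all genes, 0 passed, and the median was -0.68. The replicate medians were -0.77 and -0.65. Slc14a1, a urea transporter, gave -1.76, -2.03, -2.27 and -2.36, and Gkn3, a gastrokine, gave -1.98, -2.58, -1.95 and -1.79, each with a limma adjusted p of 0.0537. Olfm4, a secreted glycoprotein of crypt base cells, gave -2.0, -1.47 and -1.77 on its 3 usable arrays and was picked after its values were seen. All 3 genes were below -1 on each usable array. Clca3b gave -0.38, -2.04, -1.98 and -2.02, and 3 neighbouring Clca3 genes on chromosome 3 were low together. The 2 probes of the RNA-binding protein gene Msi1 disagreed, with means of 0.76 and -1.05.

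Wnt target genes followed with smaller values. Of 26 tested, 20 were below 0, 14 of them on all 4 arrays against 14.3% of all genes. In both replicates 3 were at -1 or lower against 0.413% of all genes, 0 passed, and the median was -0.48. These 3, Lgr5, Slc12a2 and Sox9, are also on the stem cell list, so the counts of the lists overlap. Lgr5 is itself a deleted gene. Slc12a2, the sodium, potassium and chloride cotransporter, gave -0.92, -2.0, -1.69 and -1.76. The surface receptor Cd44 gave -1.35, -0.58, -1.64 and -1.90, and Sox9, a transcription factor of crypt progenitors and Paneth cells, gave -0.78, -1.28, -1.38 and -1.48. The feedback inhibitor Axin2, the usual readout of the pathway, gave -0.72, -0.73 and -0.58 on its 3 usable arrays, less than Lgr5 itself. Myc gave -0.08, -0.71, -0.71 and -1.0, and Ascl2, the stem cell transcription factor, gave -1.04, -0.08, -0.42 and -0.36. These last 3 were below 0 on every usable array and were picked for their known roles after their values were seen. The Wnt ligands and receptors had a median of -0.09 over 17 genes tested, and the beta-catenin complex with the TCF factors a median of 0.02 over 15.

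**Figure D3:**
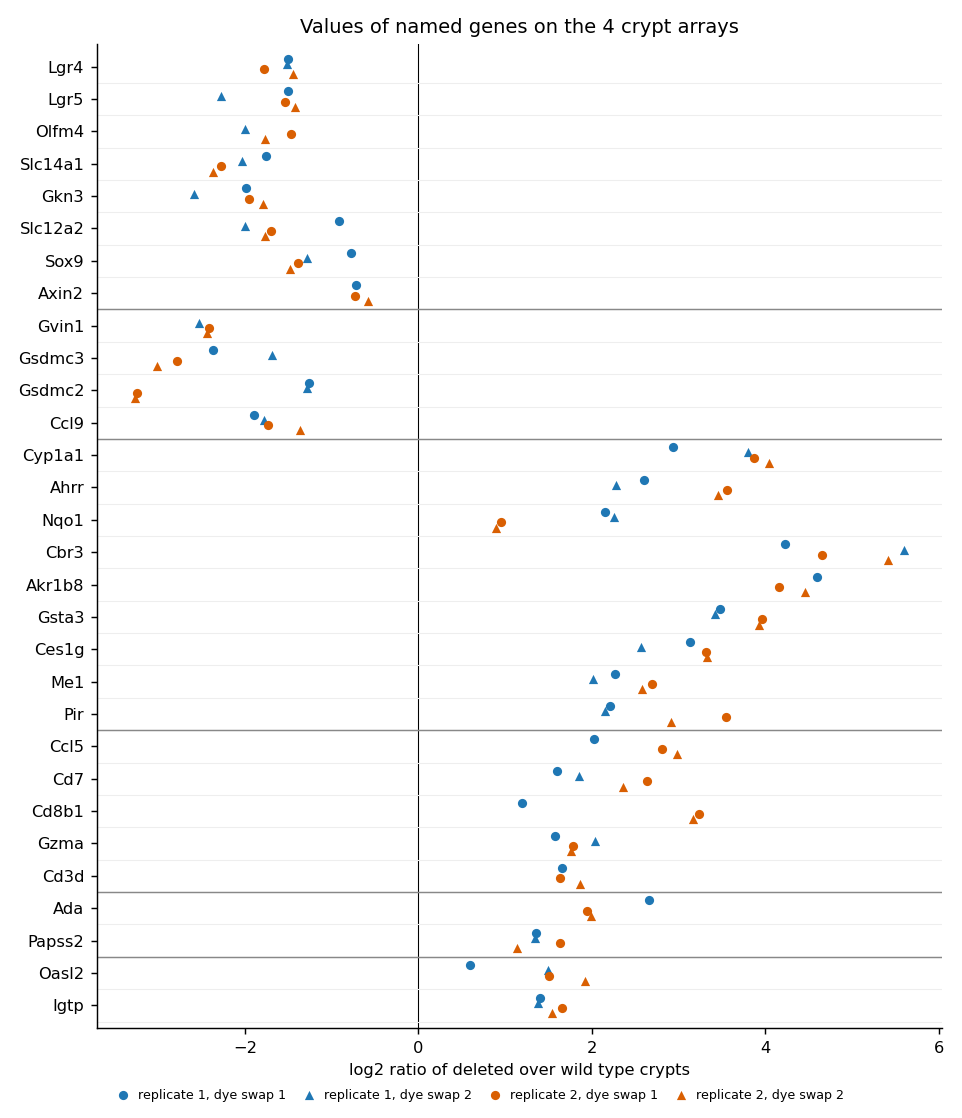
Log2 ratios of deleted over wild type crypts (horizontal axis) for 30 named genes (rows, grouped as R-spondin and Wnt or stem cell genes, other low genes, foreign-compound enzymes, lymphocyte, enterocyte and interferon genes), with 1 point per usable array; circles have the deleted RNA in Cy3 and triangles in Cy5. Cbr3, Akr1b8, Gsta3 and Cyp1a1 lie at about 3 to 5.6 on all usable arrays and the stem cell genes at the top mostly between -1 and -2.6.

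Paneth cell genes were low mainly in replicate 1. Of 20 tested, 18 were below 0, 2 were at -1 or lower in both replicates against 0.413% of all genes, and 0 passed. The median was -1.30 in replicate 1 and -0.19 in replicate 2. The chemokine Ccl9 gave -1.90, -1.77, -1.73 and -1.36 (limma adjusted p 0.0713), close to each other in both replicates. The phospholipase gene Pla2g2a was lower in replicate 2, at -0.48, -0.47, -1.0 and -1.0. The defensin gene Defa22, which codes for an antimicrobial peptide and has close copies, gave -1.89, -1.16, -0.87 and -0.69, and lysozyme Lyz1 gave -2.01, -1.44, -0.20 and 0.49. Reg3g and Reg3b, secreted lectins that bind bacteria, had the opposite sign, at 1.70, 1.91, 0.02 and 0.51 and at 2.89, 3.53, 1.40 and 1.90. Of the other secretory lineages, 24 goblet cell genes had a median of -0.05, 21 enteroendocrine genes one of 0.06 and 15 tuft cell genes one of 0.39.

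Mitosis genes were slightly below 0. Of 54 tested, 49 were below 0, with replicate medians of -0.49 and -0.28. Of 50 DNA replication genes 38 were below 0, with replicate medians of -0.43 and -0.03, so this list was low in replicate 1 only, and 0 of either list passed. Hmgb2, a chromatin protein of dividing cells, gave -0.98, -0.72, -1.37 and -1.70, and the topoisomerase Top2a gave -0.14, -0.80, -0.74 and -0.85. The cell cycle inhibitor Cdkn1a gave 1.15, 0.84, 1.23 and 1.48, whereas another such inhibitor, Cdkn1b, gave -0.43, -0.75, -1.48 and -0.74. Both are on a list of p53 targets and cell cycle inhibitors with 23 genes tested. Of these, 14 were above 0 and 9 below 0, with a median of 0.12, and 0 were at 1 or higher in both replicates. Ribosomal protein genes had a median of -0.61 over 37 tested, but their array medians were -0.93 and -1.10 where deleted RNA was in Cy3 and -0.12 and -0.55 where it was in Cy5. This list thus differed by dye in both replicates.

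Enterocyte genes were mostly above 0. Of 46 tested, 41 were above 0, 0 passed, and the median was 0.57, with 0.83 and 0.38 in the replicates. In both replicates 5 were at 1 or higher against 1.07% of all genes, and 1 was at -1 or lower against 0.413%. Cbr1, among the 5, is also on the Nrf2 list. Papss2, which makes the sulphate donor, gave 1.36, 1.34, 1.63 and 1.13. The brush border amino acid transporter Slc6a19 gave 1.64, 0.90, 0.88 and 1.49, and the sugar-splitting enzyme Mgam gave 1.23, 0.83, 1.19 and 1.17. Outside this list, Tmprss15, the enteropeptidase of the duodenal brush border, gave 1.83, 2.13, 2.52 and 2.61 (limma adjusted p 0.0537). Slc9a3, the sodium and proton exchanger, also outside the list, gave 1.24, 2.01, 1.11 and 1.23. It lies within 200 kb of Ahrr on chromosome 13.

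Genes of intraepithelial lymphocytes, the T cells that lie between epithelial cells, were high. Of 35 on the list, 22 were tested and 0 passed. Of these, 6 entered the test through the deleted RNA only, so that their higher values there were built in. Among the 16 that were above background in wild type RNA on all 4 arrays, 12 were at 1 or higher in both replicates against 1.07% of all genes, and the median was 1.70. Cd7 gave 1.60, 1.85, 2.63 and 2.36, the granzyme gene Gzma gave 1.58, 2.03, 1.79 and 1.76, and the integrin gene Itgae, which anchors these cells to epithelium, gave 1.25, 1.5, 2.78 and 2.52. All 3 were above 1 on every array. The T cell receptor component genes differed, with Cd3g at 1.73, 1.5, 1.01 and 1.1 and Cd3e at -0.20, 0.47, 0.10 and 0.36. Cd6, another T cell surface gene, gave 1.12, 1.24, 3.16 and 3.28. Both Cd3 genes were picked after their values were seen.

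**Figure D4:**
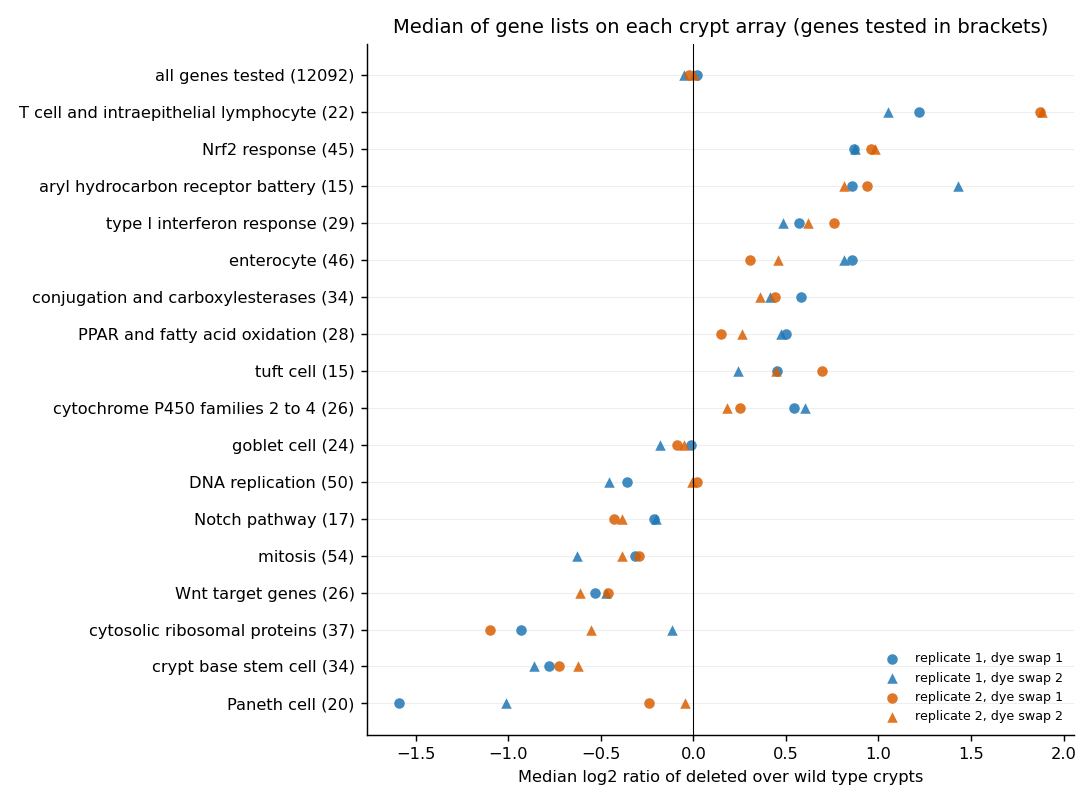
Median log2 ratio of deleted over wild type crypts (horizontal axis) of the tested members of 17 gene lists and of all genes (rows), with 1 point per array; circles have the deleted RNA in Cy3 and triangles in Cy5. Lymphocyte and Nrf2 lists lie above 0 on all 4 arrays and stem cell and Wnt target lists below 0, while the Paneth list is far below 0 only in replicate 1.

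Organoids, which are small epithelial structures cultured from crypts, had the same receptors deleted. They came from VillinCre mice with the same floxed alleles, were taken 1 day after deletion with tamoxifen, and comprised 2 wild type and 2 deleted cultures read by their Cy5 signal. Of 11642 genes tested for a difference between the crypt and the organoid effect, limma called 12 (0.103%), 6 in each direction, with 346 and 337 at an unadjusted p under 0.05. Cbr3 was at 4.97 in crypts and 0.49 in organoids (difference 4.48, SE 0.40, limma adjusted p 0.00559), Gsta3 at 3.69 and -0.45 (difference 4.15), and Akr1b8 at 4.45 and 0.59 (difference 3.87). Ces1g, at 3.09 and -0.89, and Aldh4a1, at 2.48 and -0.20, differed in the same direction. The 12 calls depended on which crypt replicates were kept. The deletion effects of these 5 enzyme genes were thus high in crypts and between -0.89 and 0.59 in organoids. Organoid signals of Cbr3, Gsta3 and Akr1b8 were high in both genotypes. Cbr3 gave 43590 and 26690 in wild type and 56530 and 53110 in deleted cultures, and Gsta3 38680 and 31590 against 30680 and 28700. Akr1b8 gave 11190 and 11680 against 20680 and 20590. Ces1g and Aldh4a1 were dimmer there, at 205.5 to 550 and 75.5 to 104. Rgcc, a cell cycle regulator, also had the higher effect in crypts (difference 4.12), with -1.10, -0.50, -0.07 and -0.07 on the crypt arrays and -4.56 in organoids. Its organoid signals were 2822 and 4046 in wild type and 152 and 88.5 in deleted cultures. Cyp1a1 and Ahrr were not tested in organoids.

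The other direction held Gsdmc3, at -2.46 in crypts and 2.06 in organoids (difference -4.52, limma adjusted p 0.0372), with 1 usable deleted culture. Nrn1, a stem cell list member, gave -0.91, -0.36, -0.47 and -0.60 on the crypt arrays and 4.98 in organoids (difference -5.57, SE 0.42, limma adjusted p 0.00541). Its organoid signals were 162.5 and 98 in wild type cultures and 7506 and 4937 in deleted cultures. Over the genes of the stem cell list measured in both systems the medians were -0.68 in crypts and -1.32 in organoids. Those of the Wnt targets were -0.48 and -1.07, so both lists, which share members, were low in both. The 9 lymphocyte genes measured in both had a median of 1.42 in crypts and 0.02 in organoids.

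**Figure D5:**
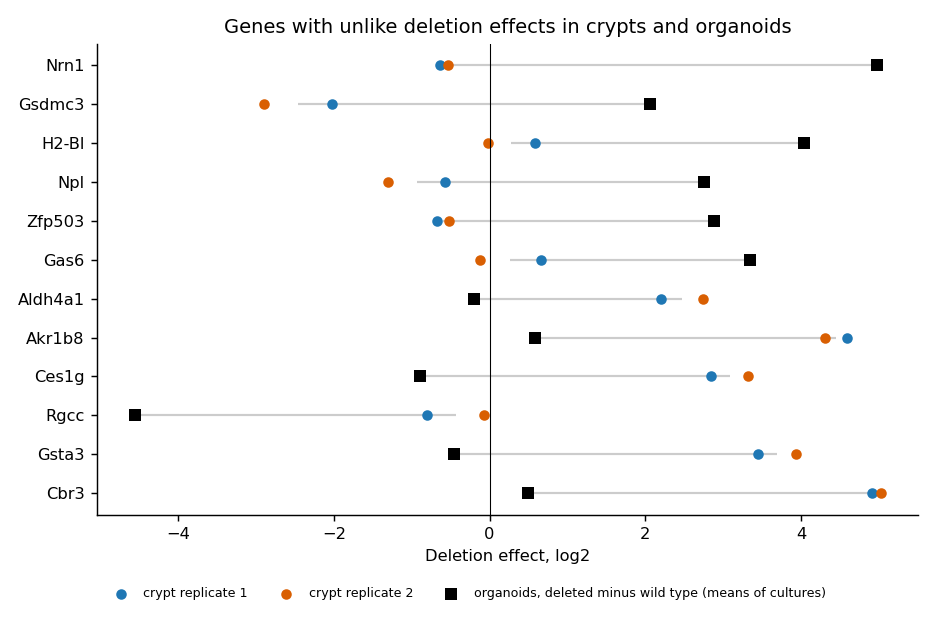
Deletion effects (log2, horizontal axis) of the 12 genes called for a difference between the systems (rows), with circles for the 2 crypt replicates, squares for the difference of the organoid means, and lines from the crypt mean to the organoid value. Cbr3, Akr1b8, Gsta3 and Ces1g are above 2.8 in both crypt replicates and between -0.89 and 0.59 in organoids, and Nrn1 and Rgcc are far from 0 only in organoids.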

How the data were processed

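Each of the 4 crypt arrays was a two-colour Agilent array of 45018 spots, with deleted and wild type RNA in opposite dyes. The authors deposited scanner files whose intensity columns, per the file headers, came from Agilent Feature Extraction 10.5.1.1, whereas the submitters' processing notes name 8.5.1.1. The authors also deposited a series matrix of log10 ratios, which matched the scanner ratios with the sign turned on the 2 arrays with deleted RNA in Cy3. Mean intensities were background-corrected with normexp (offset 50) and normalised by loess within arrays in limma 3.58.1 under R 4.3.3, with data.table version 1.17.8. Control spots (1639 per array) and spots the software marked as outliers (2.48% to 6.94%) were left out, and no spot was saturated. Dye swaps were averaged, so limma tested 2 replicate values against 0 with 1 residual degree of freedom, two-sided. Where 1 array of a pair was not usable, the replicate value came from the other alone, so its dye effect was not cancelled.

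A gene was read by its brightest probe and tested where that probe was above background on all 4 arrays in at least 1 RNA. Of 43379 gene probe spots, 27041 were named by accession, 6549 by symbol, 1649 by older symbol and 8140 kept the file's name. Named genes were those past the test, the 15 lowest and 15 highest genes with 1 sign on all 4 arrays, members of the R-spondin list, and up to 4 members a direction of each list; other genes, among them Ahr, Lyz1, Msi1, Cyp3a11 and the genes used to check the RNA, were picked after their values were seen. The experiment, lists and rules were chosen with earlier results of these data known. Gene symbols and neighbours came from RefSeq (GRCm38.p6). The scripts were tested on simulated data. The titles call the replicates biological without stating that they came from separate mice. Xist and Y-linked transcripts differed between the deleted RNAs of the 2 replicates, while both wild type RNAs carried Xist. The p-values thus measure the spread between these samples, and the number of arrays limits their precision.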

Additional observations from a re-analysis of the deposited data

Results flagged for a closer look

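The deletion effect in crypts differed from that in organoids by limma's test of the difference (adjusted p under 0.05) for 12 genes, each given as crypt minus organoid effect on the log2 scale. Among the foreign-compound enzymes and their neighbours in function, the difference was 4.48 for Cbr3, 4.15 for Gsta3, 3.98 for Ces1g, 3.87 for Akr1b8 and 2.68 for Aldh4a1. The deletion effects of these genes were high in crypts. Rgcc differed by 4.12, with a low value in deleted organoids, where the Cy5 signal was 152 and 88.5 against 2822 and 4046.

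Below 0 were Nrn1 at -5.57, Gsdmc3 at -4.52, the class I antigen gene H2-Bl at -3.75, Npl at -3.70, Zfp503 at -3.48 and Gas6 at -3.08. Zfp503 was not above background in either wild type culture, so its organoid rise has only a bound and -3.48 is the fitted value, not a measured size. For Nrn1, H2-Bl, Npl and Gas6 the crypt values lay between -0.94 and 0.28 and the organoid values between 2.76 and 4.98. Crypts and organoids also differed in the Cre driver and the inducer, which cannot be told apart from tissue against culture.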

How the results depend on the processing

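The calls depended strongly on the processing. Against 1 lower and 6 higher genes, limma gave 201 and 330 with the scanner software's processed signals, 151 and 284 with the deposited series matrix, 13 and 40 without background subtraction, 12 and 40 with marked outlier spots kept, 20 and 64 with scale normalisation, 22 and 76 with the median over a gene's probes, 0 and 0 with no filter on dim probes, and 0 lower under the strict filter. With 1 dye orientation, it gave 209 and 246 (replicate 1, deleted RNA in Cy3), 50 and 123 (replicate 1, Cy5), 5 and 15 (replicate 2, Cy3) and 8 and 39 (replicate 2, Cy5). The 4 arrays with replicate as a random block (replicate block, correlation 0.329) gave 252 and 358, and the spread pooled with the organoid arrays gave 72 and 181. Leaving out a replicate gave 0 to 390 lower and 3 to 205 higher genes; the lone replicate was assumed to vary like the organoid deletion arrays. Genes at -1 or lower and at 1 or higher in both replicates, 50 and 129, became 109 and 261 with processed signals, 111 and 256 with the matrix, and 12 and 57 with marked spots kept. Leaving out X-linked genes, an alternative chosen after seeing the data, kept 1 and 6, none of which is X-linked. The 12 differences from organoids became 3 by organoid ratio, 0 to 14 without a crypt replicate and 6 to 8 without an organoid culture. The causes were not tested. Among the genes and lists described above that were rerun, those whose sign changed under some alternative were Rnf43, the goblet cell, enteroendocrine, Wnt ligand and receptor, and beta-catenin and TCF lists, all near 0.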

Other observations

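Notch signalling, which holds crypt cells back from secretory fates, showed lower values mainly in replicate 2. Of 17 Notch genes tested, 13 were below 0 with a median of -0.31, and 0 passed. The target gene Hes1 gave -0.52, -0.51, -1.39 and -1.74 and the receptor gene Notch1 -0.48, -0.40, -1.27 and -1.57, each lower in replicate 2. Dtx1, a ubiquitin ligase of the pathway, had the opposite sign at 1.31, 1.23, 2.87 and 2.50. Among growth factor genes, the receptor Egfr gave -1.25, -0.54, -1.10 and -0.56 and its ligand gene Areg 0.65, 0.89, 1.01 and 0.71, with 1 sign each on all 4 arrays.

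Genes of lipid use and synthesis differed. Of 28 genes of PPAR action and fatty acid oxidation tested, 20 were above 0 with a median of 0.42. In both replicates 2, Acadl and Me1, were at 1 or higher, against 1.07% of all genes. Me1 was also counted on the Nrf2 list. The thioesterase gene Acot1 gave 0.77, 1.00, 2.36 and 2.18 and the mitochondrial dehydrogenase gene Acadl 1.87, 0.66, 1.08 and 1.13. Of 23 cholesterol synthesis genes 15 were below 0, with a median of -0.03, and the desaturase gene Scd2 gave -0.77, -1.58, -2.07 and -2.06. Nr1i3, a nuclear receptor for foreign compounds also known as CAR, gave 1.17, 0.88, 1.14 and 1.05. The 9 stromal and muscle genes tested had a median of 0.23 in replicate 1 and -0.46 in replicate 2. Within this list 2 collagen genes were below 0, with Col1a2 at -0.91, -0.91, -1.39 and -1.42 and Col3a1 at -0.53, -0.80, -1.55 and -1.56. Thy1 gave 0.63, 0.94, 2.18 and 2.23 and Tagln 0.14, 0.63, 0.05 and 0.52. Thy1 was above background in wild type RNA on only 3 arrays, so it was tested through the deleted RNA only. None of the genes named here passed the limma test.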
